A study of Mus musculus with 50 samples.

Results

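The glycolysis and hypoxia genes described here are 32 named genes: the oxygen-sensing HIF factors and their regulators, the glucose importer, the enzymes from hexokinase to lactate dehydrogenase, the lactate exporter and a set of classical hypoxia-induced genes. They were chosen by name from the gene column of the deposited tables. Of the 32, 31 matched by symbol and 1, Ero1l, matched by gene identifier because the tables list it as Ero1a. Together they took 33 rows of the 55416 genes, since Aldoa has a second row with few counts that is left out of the counts below. All 32 passed the filter on low counts in both batches tested.

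Glycolysis splits glucose into pyruvate, and lactate dehydrogenase then turns pyruvate into lactate, which leaves the cell through a monocarboxylate transporter. HIF-1, a pair of HIF-1 alpha and ARNT, raises transcription of many of these genes at low oxygen, while prolyl hydroxylases (the Egln genes) and VHL mark HIF alpha subunits for degradation when oxygen is present. Inflammatory macrophages are known for drawing on glycolysis also at normal oxygen.

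RNA was measured by poly-A selected RNA-seq in RAW264.7, a mouse macrophage line, in 50 libraries of 3 labelled batches. Control cells carried an empty vector sgRNA. Edited lines carried CRISPR knockouts of SGK1, of SGK3, or of both (double knockout, dKO), which are serum- and glucocorticoid-regulated kinases. Cells were left untreated or stimulated for 2 h with 10 μg/mL DMXAA, an agonist of mouse STING, and 1 group of control cells had 500 nM of the SGK inhibitor Sanofi-14h for 2 h before DMXAA. Batch b1 held control cells at rest (3 libraries), with DMXAA (5) and with Sanofi-14h and DMXAA (5), SGK3 knockout cells at rest (3) and with DMXAA (5), and dKO cells with DMXAA (5). Batch b2 held control cells at rest (3) and with DMXAA (4), SGK1 knockout cells at rest (3) and with DMXAA (4), and dKO cells at rest (3) and with DMXAA (3). Batch b3 held 4 libraries and entered no test. All lines are sgRNA-transduced RAW264.7 cells, and the labels name 1 line per genotype without saying whether it is a clone. Genotype and other differences between lines therefore cannot be told apart. A DMSO vehicle is mentioned without the control libraries that received it, so the inhibitor comparison may include a vehicle difference. Whether replicates came from different cultures is not stated, and the p-values then cover the spread among these libraries alone, which may be technical.

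Depth was 57859509 to 112007140 counts per library in b1 and b2. Sgk1 stood at 24.7 to 54.8 CPM (counts scaled to the size of the library) in the control libraries with DMXAA of both batches. In the SGK1 knockout and dKO libraries with DMXAA it stood at 1.71 to 6.67 CPM. Where SGK1 was not edited, Sgk1 with DMXAA was 19.2 to 24.7 CPM in SGK3 knockout and 9 to 13.8 CPM in inhibitor-treated cells of b1. Resting control libraries had 1.04 to 2.99 CPM, so a low Sgk1 level does not by itself show editing. Sgk3 stood at 89.1 to 145 CPM in the SGK3 knockout and dKO lines and at 95.2 to 133 CPM in control cells without inhibitor. Gene-level counts do not show whether the edited site is disrupted, so Sgk3 checks nothing here. Of 10 macrophage markers 9 were above 1 CPM in at least 1 library and none was at 0 throughout, while the markers of T cells, endothelium, epithelium, fibroblasts, neutrophils and NK cells were under 1 CPM in every library. Of 3 B cell markers 2 were at 0 throughout, and their sum was 0 to 0.0993 CPM at rest and 0.891 to 1.68 CPM with DMXAA in control cells of b1. The length trend of a library is its tilt towards long transcripts relative to its batch. It was measured as the slope on log2 gene length of log2 CPM minus each gene's batch mean, with length read from counts and TPM. The slope ran from -0.0913 to 0.0889 in b1 and from -0.236 to 0.395 in b2, each on its own baseline. Many glycolytic genes are short, so some b2 values and counts are given below also with this trend removed. The other b2 values are from the main fit only.

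The promoters of 6 of the genes that carry the patterns below are shown first. They are Pfkp and P4ha1, higher with DMXAA, Ldha, Pgam1 and Slc16a3, lower in the dKO, and Hk3, higher in it. Each window runs from 250 bases before to 50 bases after the start given by RefSeq on GRCm38.p6, 5′ to 3′ on the gene's strand. Capitals mark the core letters of the hypoxia response element, ACGTG or GCGTG on either strand, and CACGTG holds ACGTG on both strands, overlapping.
Pfkp (GRCm38.p6, chr13:6648722-6649021, minus strand): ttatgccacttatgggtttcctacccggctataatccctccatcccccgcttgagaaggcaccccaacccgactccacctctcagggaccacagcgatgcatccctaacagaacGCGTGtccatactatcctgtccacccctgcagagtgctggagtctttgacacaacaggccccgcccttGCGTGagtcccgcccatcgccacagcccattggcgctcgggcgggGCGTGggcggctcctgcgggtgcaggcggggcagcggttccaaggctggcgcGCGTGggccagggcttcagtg
P4ha1 (GRCm38.p6, chr10:59323046-59323345, plus strand): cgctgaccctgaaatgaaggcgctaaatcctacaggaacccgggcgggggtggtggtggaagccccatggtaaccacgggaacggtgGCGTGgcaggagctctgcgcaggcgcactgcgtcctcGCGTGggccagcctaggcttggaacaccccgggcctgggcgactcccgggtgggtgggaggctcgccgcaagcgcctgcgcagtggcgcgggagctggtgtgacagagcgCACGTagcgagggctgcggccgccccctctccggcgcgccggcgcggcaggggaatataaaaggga
Ldha (GRCm38.p6, chr7:46845554-46845853, plus strand): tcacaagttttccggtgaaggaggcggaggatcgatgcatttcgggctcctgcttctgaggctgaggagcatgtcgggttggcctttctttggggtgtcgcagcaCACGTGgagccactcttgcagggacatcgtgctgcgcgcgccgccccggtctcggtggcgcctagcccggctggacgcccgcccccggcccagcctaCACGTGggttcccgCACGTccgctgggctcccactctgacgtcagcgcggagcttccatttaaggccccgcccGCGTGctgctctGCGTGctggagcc
Pgam1 (GRCm38.p6, chr19:41911621-41911920, plus strand): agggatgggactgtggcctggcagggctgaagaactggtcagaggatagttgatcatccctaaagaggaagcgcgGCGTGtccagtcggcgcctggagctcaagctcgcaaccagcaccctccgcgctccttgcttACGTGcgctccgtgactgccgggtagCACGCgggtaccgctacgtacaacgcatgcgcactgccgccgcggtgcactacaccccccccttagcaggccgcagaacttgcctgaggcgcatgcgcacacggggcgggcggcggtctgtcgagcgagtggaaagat
Slc16a3 (GRCm38.p6, chr11:120948817-120949116, plus strand): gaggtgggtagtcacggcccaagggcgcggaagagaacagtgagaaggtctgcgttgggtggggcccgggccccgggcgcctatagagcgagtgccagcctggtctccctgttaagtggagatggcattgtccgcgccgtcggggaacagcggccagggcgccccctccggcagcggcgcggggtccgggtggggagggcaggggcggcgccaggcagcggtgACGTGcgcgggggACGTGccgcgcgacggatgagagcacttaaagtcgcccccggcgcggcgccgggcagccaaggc
Hk3 (GRCm38.p6, chr13:55021336-55021635, minus strand): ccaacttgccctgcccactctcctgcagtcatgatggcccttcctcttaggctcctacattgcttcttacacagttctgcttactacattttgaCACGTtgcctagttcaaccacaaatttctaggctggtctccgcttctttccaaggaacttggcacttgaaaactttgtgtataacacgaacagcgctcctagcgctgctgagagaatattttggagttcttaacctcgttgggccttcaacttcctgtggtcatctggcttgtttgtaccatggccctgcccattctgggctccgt

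Windows were found for 31 of the 32 genes, 46 windows in all, and 37 of them (80.4%) held at least 1 core match. Among the 32851 promoter windows of 300 bases in the table, 43.8% held one. Pfkp had 4 matches and Ldha 7, counted on both strands, whereas the Hk3 window had 1. All 6 printed windows are the first listed for their gene and hold a match, as did the first windows of 24 genes in all. Genes with the same patterns also lacked one: the first windows of Tpi1, Pkm and Aldoa, lower in the dKO, and of Vegfa, higher with DMXAA, held 0. Pkm, Aldoa and Vegfa had a match in another window. A match is a run of letters and says nothing of binding, and base composition differs between promoters and was not matched.

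In resting control cells the 8 genes with the highest levels per transcript length were enzymes of the glycolytic chain. Pkm, which makes pyruvate and ATP, led at 7342 ± 199 TPM (SD, n = 3) in b1 and 8926 ± 158 TPM (n = 3) in b2. Ldha followed at 2136 ± 117 TPM in b1, then Eno1 (enolase) at 1799 ± 58.7 TPM, Aldoa (aldolase) at 1530 ± 58.3 TPM and Pgk1 (phosphoglycerate kinase) at 1144 ± 51.7 TPM. Tpi1, Pgam1 and Gpi1 completed the 8, and in b1 the libraries of neighbours in this order did not overlap. Ldha and Eno1 overlapped in b2, so their order is not resolved there. The entry and control steps were much lower: the phosphofructokinases Pfkp and Pfkl and the hexokinase Hk1 overlapped at 81.9 ± 5.53, 79.5 ± 9.43 and 79.2 ± 4.03 TPM in b1. Hif1a stood at 49.4 ± 1.8 TPM in b1. Epas1 (HIF-2 alpha), Egln3 and Adm (adrenomedullin) had at most 41, 22 and 108 counts in any library.

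**Figure D1:**
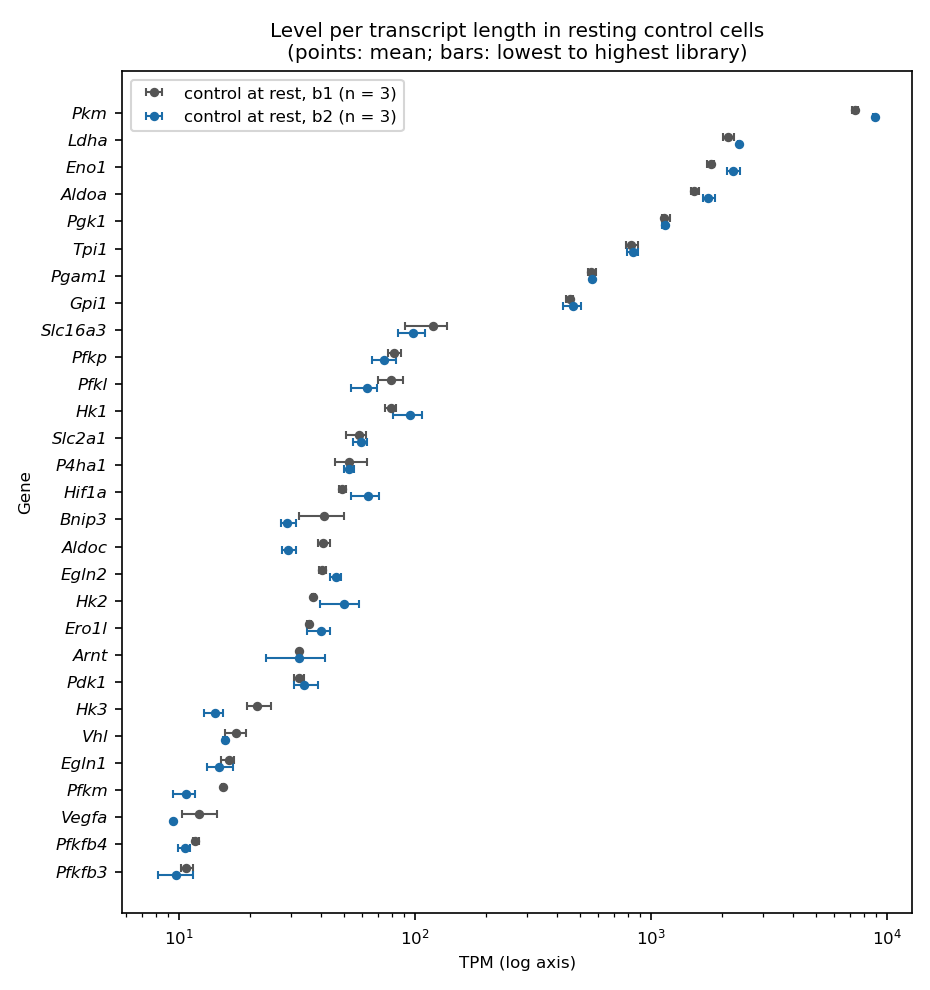
Level per transcript length (TPM, log axis) of 29 of the genes in resting control cells, as the mean and the lowest to highest of 3 libraries in b1 (grey) and b2 (blue). Pkm is highest at 7342 TPM in b1 and 8926 TPM in b2; Epas1, Egln3 and Adm, with few counts, are left out.

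The first comparison asked which of these genes moved 2 h after DMXAA in control cells. In b1, 7 of 32 rose and 4 fell (edgeR, adjusted p under 0.05), against 35.3% of the 16947 genes tested (17.9% higher and 17.4% lower), so the 11 called (34.4%) were close to the background share. The median log2 fold change of the genes was 0.03, and that of all genes tested 0.00. Those that rose were the glucose importer Slc2a1, Hk2, Pfkp, Vegfa, P4ha1, Adm and, by a small step, Pgk1. Those that fell were Pfkfb4, Pdk1, Arnt and Aldoc. In b2, with fewer libraries and a wider spread, 3 rose (Pfkp, Vegfa and P4ha1) and none fell, against 3.98% of 16622 genes (2.52% higher and 1.46% lower). All 3 had also risen in b1, and the overlap between batches over all genes was not counted. For the control response, b1 minus b2, none of the 32 passed in edgeR, against 3.21% of all genes, with 6 at an unadjusted p under 0.05 and 2 by DESeq2. The share of all genes at that unadjusted p was not counted, and that by DESeq2 is not given here. The edgeR count was 2 without resting control library 1 of b1 and 1 without resting control library 2 of b1 or library B of b2.

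Pfkp, the platelet-type phosphofructokinase at the committed step, read 204, 165 and 189 CPM in the 3 resting control libraries of b1 and 357, 398, 372, 355 and 339 CPM in the 5 with DMXAA. Every stimulated library lay above every resting one, and the log2 fold change was 0.97 ± 0.0671 (SE; edgeR adjusted p = 1.96e-13). In b2 the control cells went from 166, 146 and 183 CPM to 251, 266, 249 and 275 CPM, a log2 fold change of 0.66 ± 0.0791 (edgeR adjusted p = 1.4e-05). Pfkp rose with DMXAA also in SGK3 knockout cells (0.87 ± 0.0669), SGK1 knockout cells (0.71 ± 0.0792) and dKO cells (0.60 ± 0.0836), so it rose in all 5 comparisons of DMXAA with rest.

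P4ha1, a collagen prolyl hydroxylase subunit and a classical HIF target, read 110, 89.8 and 99.7 CPM at rest and 176, 196, 178, 167 and 172 CPM with DMXAA in control cells of b1. The groups did not overlap, and its log2 fold change was 0.83 ± 0.0742 (edgeR adjusted p = 7.69e-11). In b2 the P4ha1 values were 93, 91.6 and 105 CPM at rest and 123, 137, 132 and 136 CPM with DMXAA, a log2 fold change of 0.45 ± 0.0888 (edgeR adjusted p = 0.00339). P4ha1 also rose in SGK3 knockout (0.88 ± 0.0745), SGK1 knockout (0.36 ± 0.0886) and dKO cells (0.56 ± 0.0944), and the SGK1 knockout call was lost without resting library F (edgeR adjusted p = 0.0673).

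Vegfa, the angiogenic growth factor, read 23.4, 16.8 and 19.1 CPM at rest and 36.2, 36.6, 36.7, 37.7 and 38 CPM with DMXAA in b1, a log2 fold change of 0.91 ± 0.0772 (edgeR adjusted p = 2.31e-11). In b2 Vegfa went from 15.2, 15.1 and 14.3 CPM to 23.1, 29.9, 22.3 and 26.9 CPM, a log2 fold change of 0.78 ± 0.166 (edgeR adjusted p = 0.00695). In both batches every control library with DMXAA was above every resting one. Vegfa passed the test in SGK3 knockout (0.76 ± 0.0772) and SGK1 knockout cells (0.67 ± 0.166), and in dKO cells of b2 its log2 fold change of 0.50 did not. Without resting SGK1 knockout library F the SGK1 knockout call of Vegfa was lost (edgeR adjusted p = 0.0791).

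Slc2a1 (GLUT1) went from 104, 88.3 and 101 CPM to 144, 155, 144, 135 and 131 CPM in b1, a log2 fold change of 0.53 ± 0.0637 (edgeR adjusted p = 3.12e-08). Hk2, the inducible hexokinase, went from 109, 107 and 110 CPM to 146, 189, 169, 153 and 145 CPM, a log2 fold change of 0.56 ± 0.0761 (edgeR adjusted p = 3.99e-07). Neither group pair overlapped. In control cells of b2 the log2 fold changes of Slc2a1 (0.26) and Hk2 (0.27) did not pass the test, and the differences between batches (0.27 and 0.29) did not pass either. For Adm, 3 to 31 counts per resting library of b1 became 48 to 76 counts with DMXAA, a log2 fold change of 1.95 ± 0.494 (edgeR adjusted p = 0.00203) that rests on few counts. Pgk1 moved by 0.12 ± 0.0462, a call lost without any of 4 single libraries, and that of Aldoc was lost without any of 3.

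Hif1a itself passed the test in no comparison. It read 126, 120 and 117 CPM at rest and 130, 139, 133, 124 and 118 CPM with DMXAA in control cells of b1, with overlapping groups. Its log2 fold change lay between -0.14 and 0.19 over all 18 comparisons. The control-step enzyme gene Pfkfb3, whose product makes the activator of phosphofructokinase, was likewise never called, at group means of 24.1 to 25.9 CPM in b1 and 19.4 to 28.9 CPM in b2. Its relative Pfkfb4 fell in control cells of b1 by 0.48 on the log2 scale (SE 0.0914), and Pdk1, the kinase that restrains pyruvate dehydrogenase, fell by 0.27 (SE 0.0601).

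**Figure D2:**
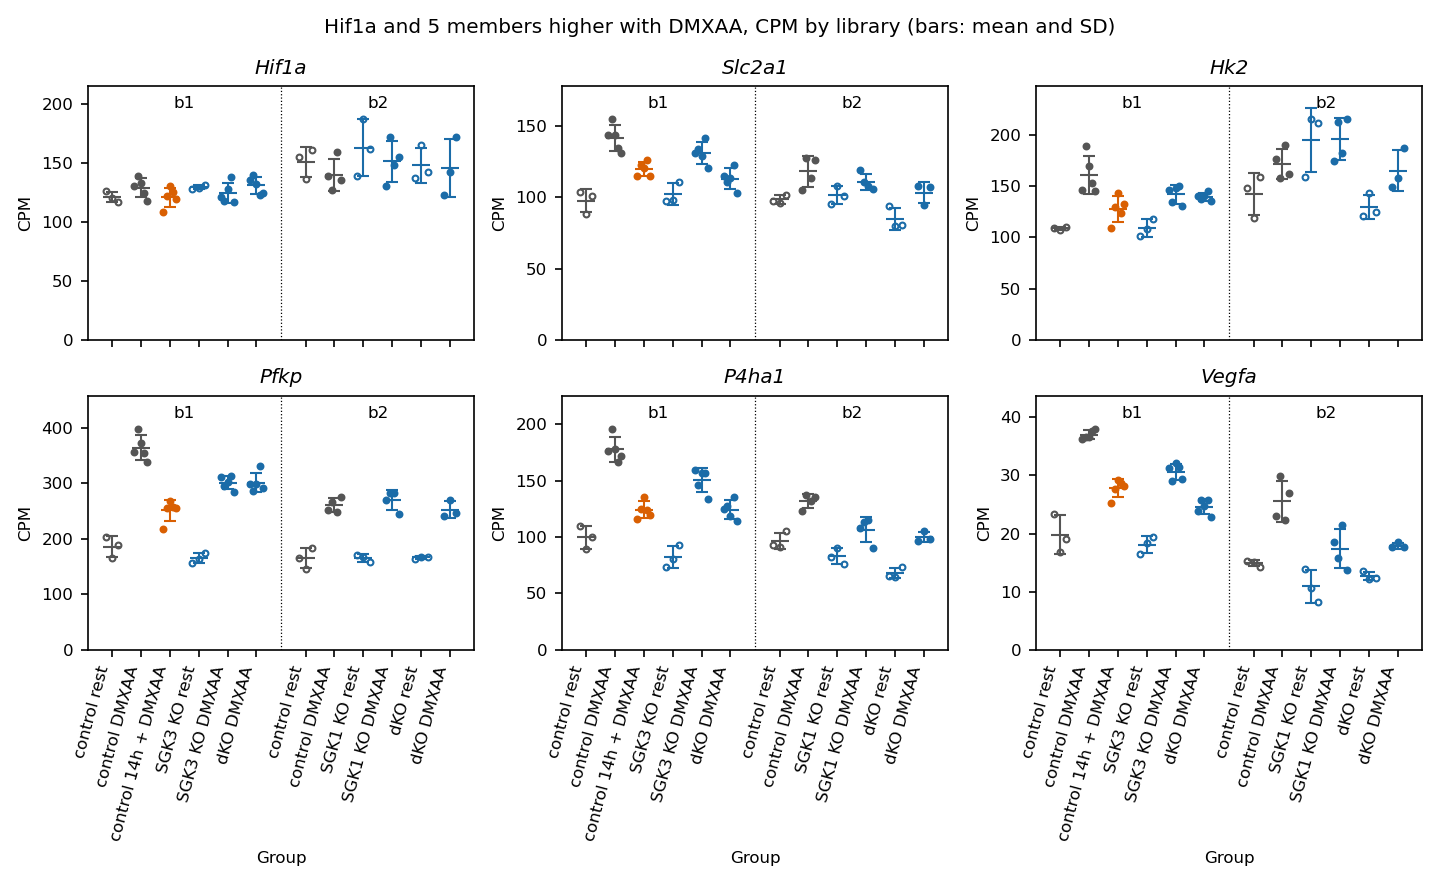
CPM of Hif1a and 5 genes in every library, by group; open points are resting and filled points DMXAA-treated libraries, grey control, orange Sanofi-14h and blue edited lines, with mean and SD. Pfkp, P4ha1 and Vegfa are higher with DMXAA in control cells of both batches, and Hif1a groups overlap at 117 to 139 CPM in control cells of b1.

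The DMXAA response was also measured in 3 edited lines. In SGK3 knockout cells 8 rose and 7 fell, against 30.1% of all genes (16.4% higher and 13.7% lower). Without resting SGK3 knockout library 1, 9 were called, and calls over all genes went from 5100 to 4134. In the test of the difference between SGK3 knockout and control responses none of the 32 passed (1.04% of all genes did), with 1 at an unadjusted p under 0.05 and none by DESeq2. In b2, SGK1 knockout cells had 4 higher and 2 lower against 11.2% of all genes (5.89% higher and 5.28% lower). That count of 6 was 12 with the length trend removed (6 higher and 6 lower) and 4 without resting SGK1 knockout library F. The shares of all genes called in those fits are not given here. The dKO cells had 3 higher and 7 lower, against 6.76% of all genes (4.31% higher and 2.45% lower). For the differences from the control response, Hk3 was the 1 gene called in SGK1 knockout cells (0.451% of all genes called) and the 1 called in dKO cells (0.782%). At an unadjusted p under 0.05 (edgeR) there were 3 in SGK1 knockout cells (1 higher and 2 lower) and 11 in dKO cells (2 higher and 9 lower). The share of all genes at that unadjusted p was not counted. Further dKO calls with the length trend removed are given below. The 7 that fell in dKO cells with DMXAA were Hk1, Pfkl, Eno1, Pkm, Ldha, Slc16a3 and Pdk1, at log2 fold changes of -0.28 to -0.45. Each of these 7 calls was lost without any of 3 to 6 single libraries, and the count of 10 fell to 4 without resting dKO library G or I, 5 without DMXAA library U and 6 without DMXAA library X or resting library H.

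The 6 members from Tpi1 to Ldha were lower in dKO cells with DMXAA in both batches. In b1, 19 of the 32 genes were lower and 4 higher in dKO than in control cells with DMXAA, where 11.9% of all genes were lower and 14.5% higher, 26.4% in all. In b2, 12 were lower and 2 higher, where 6.41% of all genes were lower and 6.43% higher, 12.8% in all. The 32 genes spread less between replicates than all genes tested. The median SD of log2 CPM within groups was 0.0909 against 0.166 in b1 and 0.136 against 0.311 in b2. Smaller changes can therefore pass for them, and in no comparison was the share of all genes matched for spread or level. The 12 lower in b2 were all among the 19 lower in b1, which is 100% of the former and 63.2% of the latter. They were Pfkl, Aldoa, Tpi1, Pgk1, Pgam1, Eno1, Pkm, Ldha, Slc16a3, Vegfa, Ero1l and P4ha1. How many of all genes lower in b2 were also lower in b1 was not counted, so whether this overlap is unusual is not known. The 2 batches share no control library, and the median log2 fold change of the 32 genes was -0.22 in b1 and -0.27 in b2. The labels do not tell lines apart within a genotype, so both batches may compare the same dKO line with the same control line. Any difference between those lines besides the edit would then recur in both batches, and cannot be told apart from the edit. In b2 the calls of Aldoa and Vegfa were each lost without any of 6 single libraries, and that of Tpi1 without dKO library X. Of the 19, Egln3 is a low-count call: it had no count in the 5 dKO libraries and 4 to 16 counts in the controls, and no fold is given.

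Pgam1, phosphoglycerate mutase, read 589, 555, 527, 521 and 513 CPM in control and 449, 430, 435, 450 and 472 CPM in dKO cells of b1, all with DMXAA. In b2 the same comparison gave 558, 595, 511 and 552 CPM against 381, 376 and 293 CPM. Every dKO library lay below every control library in both batches. The log2 fold change of Pgam1 was -0.27 ± 0.0398 in b1 (edgeR adjusted p = 1.97e-06) and -0.66 ± 0.103 in b2 (edgeR adjusted p = 0.000129), and the difference between batches, 0.40 ± 0.0985, passed the test (edgeR adjusted p = 0.00679), as it did for 4 of the 32 genes against 7.27% of all genes, but not without dKO library X of b2 (adjusted p = 0.0556).

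Ldha read 1870, 1710, 1680, 1640 and 1730 CPM in control and 1410, 1480, 1420, 1420 and 1540 CPM in dKO cells of b1. In b2 it read 1880, 1950, 1720 and 1800 CPM against 1490, 1250 and 1280 CPM. The Ldha groups did not overlap in either batch, with log2 fold changes of -0.25 ± 0.0408 (edgeR adjusted p = 1.52e-05) and -0.46 ± 0.0902 (edgeR adjusted p = 0.00149). Pkm, the most abundant, was lower by a small margin in b1, at 9580, 9760, 9630, 8740 and 9490 CPM against 8370, 8850, 8700, 8720 and 8850 CPM with overlapping groups (log2 fold change -0.12 ± 0.0413, edgeR adjusted p = 0.0313). In b2 the Pkm log2 fold change was -0.45 ± 0.0936 (edgeR adjusted p = 0.00211), at 10500, 11300, 9930 and 10800 CPM against 8710, 7790 and 6810 CPM. The b1 call of Pkm was lost when any of 6 single libraries was left out, at adjusted p values up to 0.0713.

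Tpi1 (triose phosphate isomerase) fell from 676, 648, 649, 630 and 667 CPM in control to 508, 500, 501, 503 and 529 CPM in dKO cells of b1, log2 fold change -0.36 ± 0.0409 (edgeR adjusted p = 1.53e-08), with -0.51 ± 0.123 in b2 (edgeR adjusted p = 0.00772). Eno1 and Pgk1 were lower at a log2 fold change of -0.25 ± 0.0441 and -0.19 ± 0.0399 in b1 and by -0.47 ± 0.0783 and -0.44 ± 0.0993 in b2. Aldoa was lower at a log2 fold change of -0.17 ± 0.0438 in b1 and -0.26 ± 0.0843 in b2, and Gpi1, the isomerase above the phosphofructokinase step, by -0.16 in both, called in b1 but not in b2.

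Slc16a3, the lactate exporter MCT4, was lower as well. It read 234, 248, 217, 220 and 236 CPM in control and 152, 158, 154, 145 and 156 CPM in dKO cells, log2 fold change -0.60 ± 0.0574 (edgeR adjusted p = 6.46e-10). In b2 Slc16a3 read 165, 200, 158 and 176 CPM against 127, 108 and 94.9 CPM, log2 fold change -0.67 ± 0.128 (edgeR adjusted p = 0.00113). The groups were apart in both batches.

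Pfkl, the liver-type phosphofructokinase, was lower in both batches, at 155, 173, 147, 147 and 148 CPM against 91.9, 98.3, 103, 98.9 and 107 CPM in b1 (log2 fold change -0.63 ± 0.058, edgeR adjusted p = 2.73e-10). In b2 Pfkl read 127, 126, 115 and 119 CPM against 83.2, 82.3 and 72.7 CPM (-0.62 ± 0.0774, edgeR adjusted p = 1.04e-05). The isozyme Pfkp, the one that DMXAA raised, was lower in dKO cells by -0.27 ± 0.0561 in b1, while in b2 its log2 fold change of -0.05 did not pass.

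Among the hypoxia-induced genes, Bnip3, a mitophagy receptor, read 35.4, 38, 32.2, 33.9 and 36.2 CPM in control and 19.1, 22.6, 18.9, 20.4 and 19.7 CPM in dKO cells of b1. Its log2 fold change was -0.80 ± 0.118 (edgeR adjusted p = 7.38e-06), and in b2 -0.35, which did not pass. P4ha1 was lower in dKO cells with DMXAA by -0.52 ± 0.0624 in b1 and -0.40 ± 0.0887 in b2, and at rest in b2 by -0.51 ± 0.0944 (edgeR adjusted p = 0.0024), at 65.7, 64.8 and 73.2 CPM against 93, 91.6 and 105 CPM. Vegfa in dKO cells was lower at a log2 fold change of -0.59 ± 0.0647 in b1 and -0.51 ± 0.165 in b2.

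At rest the dKO cells of b2 differed from control in 2 genes, P4ha1 and Ero1l (an endoplasmic reticulum oxidase), both lower, against 3.03% of all genes (1.16% higher and 1.87% lower). The call of Ero1l was lost without any of 5 single libraries (resting dKO libraries G, H and I and control libraries A and C). The 6 enzymes from Tpi1 to Ldha had log2 fold changes of -0.09 to -0.22 at rest and were not called, although the tests of the difference between rest and DMXAA did not pass for them either (-0.25 to -0.46). With the length trend removed, that difference passed for Pgk1 (-0.29 ± 0.0731, edgeR adjusted p = 0.0302) and Pgam1 (-0.40 ± 0.0773, edgeR adjusted p = 0.00472), as well as for Pdk1 and Hk3, 4 of the 32 genes in all. The share of all genes was 0.782% in the main fit and is not given here for the fit with the trend removed. No resting dKO group exists in b1.

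Because b2 libraries differ in their length trend (-0.206 to -0.0165 in control and -0.157 to 0.25 in dKO libraries with DMXAA), the dKO comparison of b2 was also fitted with the trend removed and without libraries E, F, P, R, X and H, the 6 with the highest slopes (0.114 to 0.395). Libraries with negative slopes, down to -0.236, were kept, and X is the only 1 of the 6 in this comparison. With the trend removed 14 genes were called as before, 12 of them the same, and Pgam1 stood at -0.56 ± 0.0534, Ldha at -0.32 ± 0.0611, Pkm at -0.42 ± 0.0654 and Slc16a3 at -0.72 ± 0.16. Without the 6 libraries 15 were called, 13 of them the same. The shares of all genes called in these alternative fits are not given here. Summed macrophage markers were higher in b2 control libraries with DMXAA (11500 to 13100 CPM) than in dKO libraries with DMXAA (7380 to 8620 CPM); in b1 the ranges overlapped (7750 to 8590 and 7020 to 8970 CPM). At rest in b2 the sums were 11000 to 12300 CPM in control and 8500 to 9720 CPM in dKO libraries. Their part in these results was not tested.

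**Figure D3:**
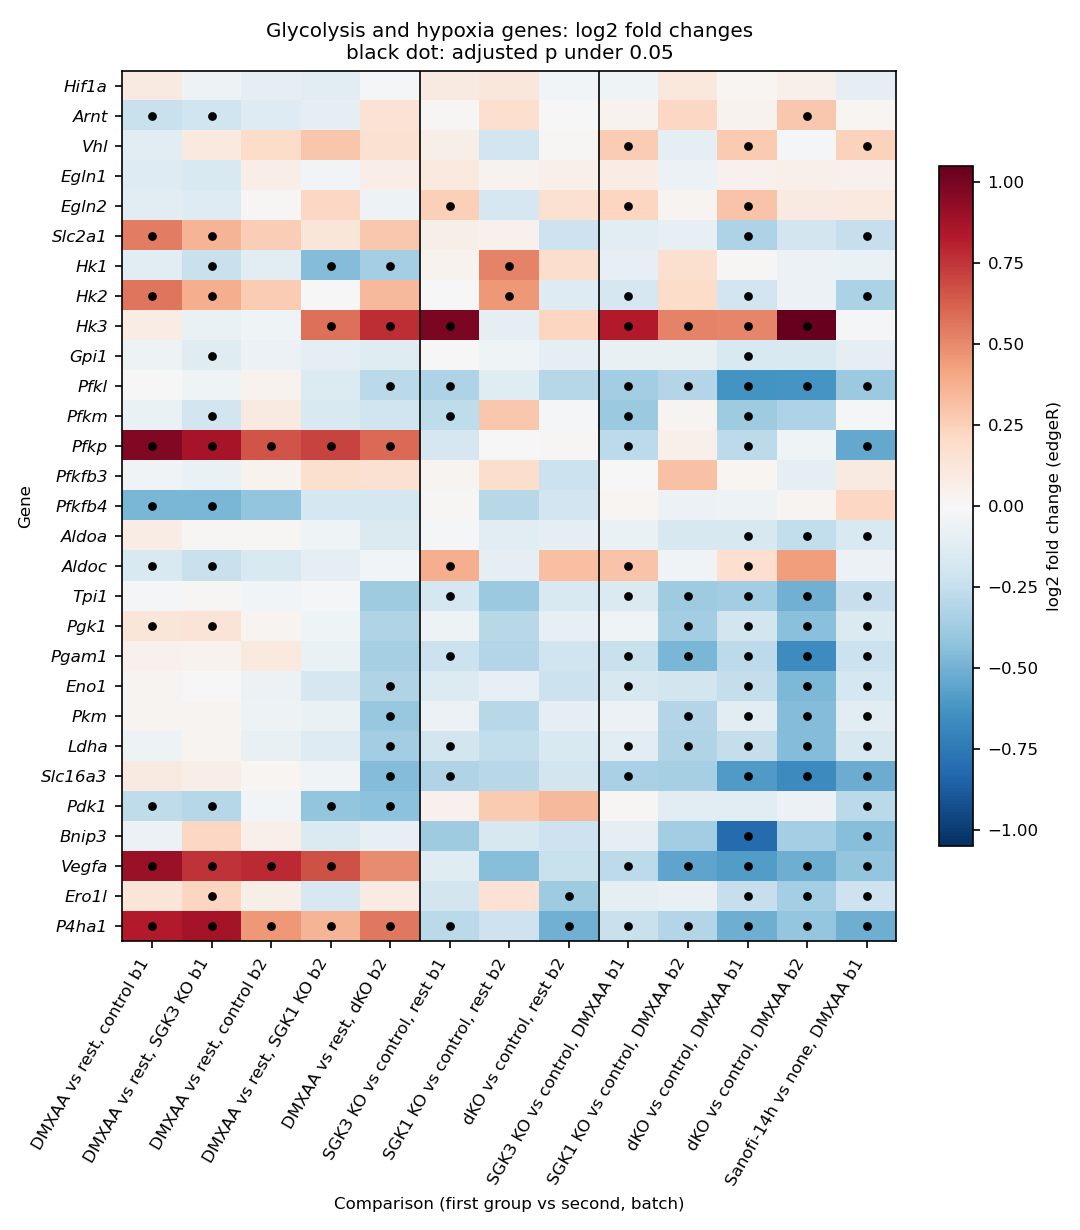
log2 fold changes of 29 of the genes (rows, Epas1, Egln3 and Adm left out for few counts) in 13 comparisons (columns), red higher and blue lower in the first group, black dots where the adjusted p is under 0.05. The rows from Tpi1 to Slc16a3 are blue with a dot in both dKO columns with DMXAA and in the Sanofi-14h column, while the row of Hk3 is red in the edited lines of b1 and b2 with DMXAA.

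The inhibitor comparison asked whether Sanofi-14h given to control cells before DMXAA moved the same genes. In b1, 18 of 32 were lower and 1 (Vhl) higher than with DMXAA alone, where 10.1% of all genes were lower and 10.6% higher, 20.8% in all. The median log2 fold change of the 32 genes was -0.17. All 6 enzymes from Tpi1 to Ldha were lower, from -0.12 (Pkm, a call lost without any of 5 single libraries, at adjusted p values up to 0.134) to -0.25 (Tpi1), and so were Slc16a3 and the 6 hypoxia-induced genes Pdk1, Bnip3, Vegfa, Ero1l, P4ha1 and Adm. This comparison and the dKO comparison of b1 share the same 5 control libraries, so their values are given side by side and not as separate support.

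Slc16a3 read 152, 165, 156, 178 and 153 CPM with the inhibitor, all below the 217 to 248 CPM of DMXAA alone, a log2 fold change of -0.52 ± 0.0573 (edgeR adjusted p = 4.01e-08), beside -0.60 in the dKO. Pfkp read 217, 256, 268, 258 and 256 CPM, all below the 339 to 398 CPM of DMXAA alone and above the 165 to 204 CPM of rest. Its log2 fold change was -0.54 ± 0.0562 (edgeR adjusted p = 1.53e-08), beside -0.27 in the dKO. No group had Sanofi-14h without DMXAA, so a lower resting level and a smaller DMXAA response cannot be told apart. P4ha1 read 116, 125, 136, 124 and 120 CPM, a log2 fold change of -0.51 ± 0.0624 beside -0.52 in the dKO.

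Pfkl (-0.39 ± 0.0578), Hk2 (-0.33 ± 0.0647), Slc2a1 (-0.24 ± 0.0541), Vegfa (-0.41 ± 0.0644) and Bnip3 (-0.45 ± 0.117) were lower with the inhibitor as well. Adm went from 48 to 76 counts per library to 14 to 27 counts, a log2 fold change of -1.59 ± 0.401. Hk3 did not share this direction. It read 31, 35.9, 41.2, 39.9 and 34.4 CPM with the inhibitor and 36.2, 41, 36.1, 36 and 35.7 CPM without, a log2 fold change of -0.02 that did not pass, beside 0.51 ± 0.0647 in the dKO.

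The single knockouts showed parts of the dKO pattern. With DMXAA, SGK3 knockout in b1 and SGK1 knockout in b2 were each set against the same control libraries as the dKO of that batch. Calls shared with the dKO are therefore not separate support. In SGK3 knockout cells 3 genes were higher and 7 lower at rest against 10.4% of all genes (5.84% higher and 4.6% lower). With DMXAA 4 were higher and 11 lower, against 22.9% of all genes (13.3% higher and 9.59% lower). There, 4 of the 6 enzymes from Tpi1 to Ldha were lower, from -0.11 (Ldha) to -0.24 (Pgam1), together with Pfkl (-0.37 ± 0.0577) and Slc16a3 (-0.34 ± 0.0572). Slc16a3 read 179, 180, 187, 193 and 171 CPM in these cells, below the 217 to 248 CPM of the same control libraries. The resting count of 10 fell to 3 without SGK3 knockout library 1 and to 5 without control library 3. With DMXAA the call of Ldha was lost without any of 7 single libraries and that of Hk2 without any of 5.

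In SGK1 knockout cells of b2, 2 genes were higher at rest, Hk1 and Hk2, against 6.43% of all genes (3.28% higher and 3.15% lower). Both are long, at 1.44 and 1.86 times the median length of well-counted genes. The resting count was also 2 with the length trend removed. With DMXAA 1 was higher and 8 lower, against 8.72% of all genes (4.66% higher and 4.07% lower). Hk1 read 289, 323 and 294 CPM at rest against 214, 189 and 228 CPM in control cells, a log2 fold change of 0.52 ± 0.0844 (edgeR adjusted p = 0.000778), and with DMXAA 219, 219, 198 and 243 CPM against 187, 193, 206 and 195 CPM, which did not pass. The resting count was 1 without control library A or B or SGK1 knockout library E or F, and 9 without SGK1 knockout library D, and Hk2 was the call that was lost. The 8 lower with DMXAA were Pfkl, Tpi1, Pgk1, Pgam1, Pkm, Ldha, Vegfa and P4ha1, with Pgam1 at 425, 385, 405 and 373 CPM against 511 to 595 CPM in control (log2 fold change -0.48 ± 0.0939, edgeR adjusted p = 0.00193). The length slopes at rest were 0.0158 to 0.395 in SGK1 knockout and -0.236 to 0.0234 in control libraries. With DMXAA they were -0.107 to 0.217 in SGK1 knockout and -0.206 to -0.0165 in control libraries. Summed macrophage markers were 8230 to 9890 CPM in SGK1 knockout libraries at rest and 8250 to 9600 CPM with DMXAA, below the b2 control ranges, and their part was not tested. With the trend removed, Pgam1 stayed at -0.35 ± 0.0489 while Ldha, at -0.16, was no longer called. The 9 calls with DMXAA fell to 3 without control library L, to 4 without SGK1 knockout library P and to 5 without control library N.

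**Figure D4:**
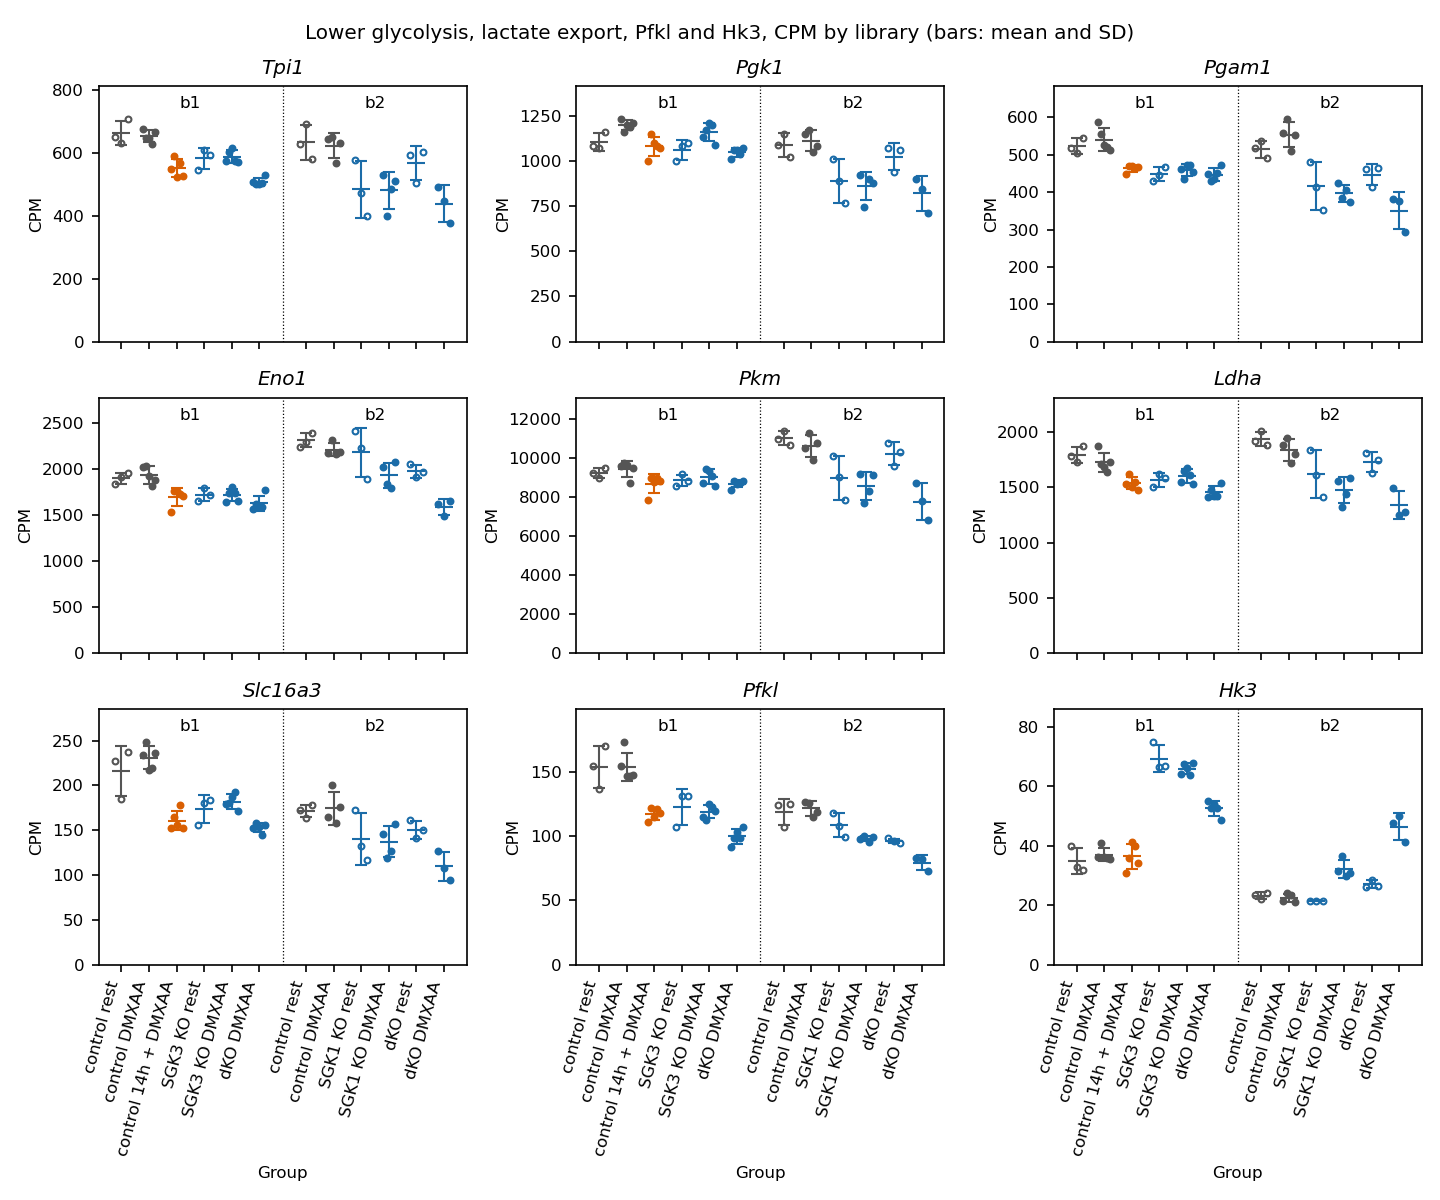
CPM in every library, by group, for 6 enzymes from Tpi1 to Ldha, the lactate exporter Slc16a3, Pfkl and Hk3; open points are resting and filled points DMXAA-treated libraries, grey control, orange Sanofi-14h and blue edited lines, with mean and SD. The dKO libraries with DMXAA are the lowest for Slc16a3 and Pfkl in each batch by mean, and Hk3 reads 48.6 to 55.1 CPM in dKO against 35.7 to 41 CPM in control cells of b1.

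Hk3, a hexokinase found mainly in myeloid cells, was higher in the SGK3 knockout and dKO lines of b1, and in the SGK1 knockout and dKO lines of b2 with DMXAA. In the b3 libraries with DMXAA, which entered no test, Hk3 stood at 17.6 and 13 TPM in dKO and 15.3 TPM in SGK1 knockout cells, beside 13.2 to 15.4 TPM in the b2 controls with DMXAA. In SGK3 knockout cells it read 74.8, 66.4 and 67 CPM at rest against 40, 33 and 32 CPM in control cells, a log2 fold change of 0.99 ± 0.0841 (edgeR adjusted p = 1.42e-10). With DMXAA it read 64.1, 67.7, 66.1, 64 and 67.9 CPM in SGK3 knockout and 55.1, 52.7, 54.2, 52.8 and 48.6 CPM in dKO cells, both above all 5 control libraries. The log2 fold changes were 0.83 ± 0.0648 and 0.51 ± 0.0647, from the same controls.

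In b2 the Hk3 difference from control passed the test with DMXAA and not at rest. At rest the SGK1 knockout libraries read 21.5, 21.6 and 21.6 CPM and the dKO libraries 26.2, 28.6 and 26.4 CPM, beside 23.5, 22 and 24.3 CPM in control cells, and neither passed. With DMXAA the control libraries read 21.4, 24, 23.4 and 21.2 CPM, the SGK1 knockout libraries 31.6, 36.6, 29.9 and 30.9 CPM and the dKO libraries 47.7, 50.1 and 41.3 CPM, with no overlap between the 3 groups. Against the same control libraries, the Hk3 log2 fold change was 0.52 ± 0.0876 in SGK1 knockout (edgeR adjusted p = 0.000441) and 1.04 ± 0.0937 in dKO cells (edgeR adjusted p = 1.09e-07). The DMXAA response of Hk3 exceeded that of control cells by 0.63 ± 0.134 in SGK1 knockout (edgeR adjusted p = 0.0374) and by 0.82 ± 0.138 in dKO cells (edgeR adjusted p = 0.00512). The former call was lost without any of 11 single libraries (adjusted p up to 0.122) and also without the 6 libraries with the highest slopes (0.56 ± 0.159, edgeR adjusted p = 0.238). The latter kept its call there (0.94 ± 0.137, edgeR adjusted p = 0.00143).

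Of the HIF regulators, Egln2, a prolyl hydroxylase, was higher in SGK3 knockout cells (0.25 at rest, 0.23 with DMXAA) and dKO cells of b1 (0.30), and Vhl was higher in SGK3 knockout (0.27), dKO (0.28) and inhibitor-treated cells (0.24) with DMXAA in b1. In b2 neither was called, and for Vhl the difference between batches in the dKO comparison, 0.31 ± 0.0974, passed the test (edgeR adjusted p = 0.0436) and was lost without any of 10 single libraries. Egln1 was called in no comparison. Arnt fell with DMXAA in control (-0.23) and SGK3 knockout cells (-0.21) of b1 and was higher in dKO cells with DMXAA in b2 (0.29), the latter lost without any of 5 single libraries. Aldoc, a minor aldolase, was higher in SGK3 knockout (0.38 at rest, 0.30 with DMXAA) and dKO cells (0.18) of b1. Pfkm was lower in SGK3 knockout and dKO cells of b1 (-0.26 to -0.39). The resting SGK3 knockout calls of Egln2 and Pfkm were each lost without any of 4 single libraries (adjusted p up to 0.123 and 0.0791).

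Lists of neighbouring pathways were read from the same fits, where 35.3% of all genes were called for DMXAA in control cells of b1, 26.4% for the dKO with DMXAA in b1 and 12.8% in b2. Of 10 further HIF regulators and partners, 5 rose and 1 fell with DMXAA in control cells of b1, with Siah2, a ubiquitin ligase acting on prolyl hydroxylases, at 1.26 ± 0.07. In dKO cells with DMXAA 3 were higher and 2 lower in b1 and 2 higher and 1 lower in b2, and Bhlhe40, a repressor that HIF induces, was higher in both (1.04 and 1.36). Of 33 other HIF and hypoxia targets tested in b1, 10 rose and 4 fell with DMXAA in control cells (42.4%, beside 35.3% of all genes). Plod2, a lysyl hydroxylase of collagen, stood at 10.7 ± 0.567 CPM at rest (n = 3) and 24 ± 1.97 CPM with DMXAA (n = 5) in control cells of b1, and at 12.5 ± 1.19 CPM (n = 5) with the inhibitor, which was lower at a log2 fold change of -0.94 ± 0.09 (edgeR adjusted p = 1.69e-07). In every edited line of both batches Plod2 had no count in any library, at rest and with DMXAA, so that it was at least 129-fold lower in dKO than in control cells with DMXAA in b1 and at least 48-fold lower in b2. These bounds use a floor of 3 read pairs per library, taken as 12 counts, and cover counting error only. The reason for the 0 counts in all 3 edited genotypes was not tested.

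Of 11 other glucose and lactate transport genes, Txnip, which limits glucose uptake, fell most with DMXAA, from 284 ± 20.2 CPM (n = 3) to 66.3 ± 3.57 CPM (n = 5) in control cells of b1 (log2 fold change -2.10 ± 0.06, edgeR adjusted p = 3.23e-23). In b2 the Txnip log2 fold change was -0.86 ± 0.0625 (edgeR adjusted p = 1.42e-08). With DMXAA, Txnip was higher in SGK3 knockout (0.56 ± 0.0534), dKO (0.79 ± 0.0535) and inhibitor-treated cells (0.66 ± 0.0534) than in the shared controls of b1. In b2 it was lower in SGK1 knockout (-0.26 ± 0.0583) and not called in dKO cells (0.11). The DMXAA response of Txnip differed between SGK3 knockout and control cells by 0.75 ± 0.0864 (edgeR adjusted p = 3.46e-06). Slc16a1, the lactate transporter MCT1, and Bsg, the chaperone of both lactate transporters, were lower in dKO cells with DMXAA in both batches (Slc16a1 -0.32 and -0.47, Bsg -0.22 and -0.55).

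Of 13 other glycolytic enzymes tested in b1, 2 were higher and 4 lower in dKO cells with DMXAA (46.2%, beside 26.4% of all genes), and of 14 in b2, 1 was higher and 3 lower (28.6%, beside 12.8%). Gapdh, the enzyme between Tpi1 and Pgk1, was -0.07 ± 0.0381 in b1, not called, and -0.52 ± 0.127 in b2 (edgeR adjusted p = 0.00813). Eno1b, listed as a separate row close in sequence to Eno1, moved with it (-0.29 and -0.52), and reads shared between the 2 rows cannot be told apart. Of 19 genes of the tricarboxylic acid cycle, 5 were higher and 1 lower in dKO cells of b1 (31.6%), and 1 was lower in b2 (5.26%). Of 9 pentose phosphate genes, 2 were higher in b1 (22.2%) and 1 (Pgd, -0.37) lower in b2 (11.1%). Of 11 genes of pyruvate dehydrogenase and pyruvate import, 3 were higher and 1 lower in each batch (36.4%), with Mpc1, a pyruvate carrier subunit, higher (0.29 and 0.54) and Pdk3 lower (-0.44 and -0.65) in both.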

How the data were processed

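Reads were aligned with STAR 2.7.9a and quantified with StringTie 2.2.0 on GRCm39, per the submitters' processing notes; GENCODE M27 is named on the deposited tables. The authors deposited expected counts (estimated counts per gene, whole as deposited) and TPM for 55416 genes. The most frequent low count is 4, so 1 count is not 1 read pair, and the floor of 3 read pairs was taken as 12 counts. The counts carry no strand, so overlapping genes share reads.

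Libraries were grouped by genotype, treatment and batch from the labels. The 26 libraries of b1 and the 20 of b2 were fitted separately with edgeR 4.0.16 under R 4.3.3 (filterByExpr, TMM scaling, robust quasi-likelihood F test, Benjamini-Hochberg over 16947 and 16622 tested genes, threshold 0.05), with 1 coefficient per group. Of 18 comparisons 16 were within a batch, and 2 compared batches in 1 fit of 46 libraries. CPM values use TMM-scaled library sizes; TPM served for levels between genes and for b3. A control library of b3, whose title and treatment field differ, was put in no group. Values are given in full for genes past the threshold with a log2 fold change of at least 0.5 in any comparison and for 7 genes picked by role; others by range and count, and up to 4 genes per further list by size of change. The members and lists were chosen with earlier results of these data known.

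In b1 labels number the replicates, but same-numbered libraries did not deviate together in the median over all pairs, so no block was used. Of 71 replicate pairs 0 were identical. On simulated counts the test recovered 72% of genes changed by 0.5 and 94% of those changed by 1 (log2) for the DMXAA response in control cells of b1 (5 false calls among 16532 genes), and 23% and 64% for the dKO with DMXAA in b2 (4 among 15904). The changed genes were picked at random. The 32 genes spread less than these in the median of all genes tested, so the percentages do not give the recovery for the 32. Alternatives were RLE scaling, DESeq2 1.42.0, no filter, 1 fit of 46 libraries, removal of the length trend, a replicate block, leaving out each library, and leaving out the 6 b2 libraries with the highest length slopes. Promoter windows came from RefSeq on GRCm38.p6 and were not placed on GRCm39.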

Additional observations from a re-analysis of the deposited data

Results flagged for a closer look

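In groups of 4 or 5 libraries, 10 of 113 tested sets of CPM values had 1 library far from the rest of its group, where chance flags about 1 in 20. Among control libraries with Sanofi-14h and DMXAA of b1, library 1 was low for Pfkp (217 CPM, others 256 to 268), Aldoa (1029 CPM, others 1153 to 1175) and Pkm (7843 CPM, others 8759 to 9002). Control library 4 with DMXAA of b1 was low for Pkm (8742 CPM, others 9494 to 9760), and control library 2 was high for Hk3 (41 CPM, others 35.7 to 36.2). In dKO cells with DMXAA of b1, library 4 was high for Pfkp (332 CPM, others 286 to 299), and library 5 was high for Tpi1 (529 CPM, others 500 to 508) and low for Adm (0.366 CPM, others 0.57 to 0.637). Egln3 was listed at 0.145 CPM in SGK1 knockout library Q and at 0.104 CPM in control library N of b2 with DMXAA, with 0 in the others of each group.

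Tests of a difference between 2 effects passed for 6 results. The DMXAA response of Hk3 in b2 was larger than in control cells by 0.63 in SGK1 knockout and by 0.82 in dKO cells. The dKO effect with DMXAA differed between b1 and b2 for Vhl (0.31), Pgam1 (0.40), Pkm (0.35) and Hk3 (-0.52), each as b1 minus b2 on the log2 scale. Pgam1 and Pkm did not pass without dKO library X of b2, Vhl did not without any of 10 single libraries, and Hk3 in SGK1 knockout without any of 11. The batch and whatever else differed between those experiments cannot be told apart.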

How the results depend on the processing

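Of 101 calls for the genes given in full, 64 held under every alternative run, and none reversed in any of them. The dKO count with DMXAA was 20 to 24 in b1 over all alternatives run. With all 46 libraries in 1 fit the counts were 2 for SGK3 knockout at rest (10 in the separate fit), 6 for the control DMXAA response in b2 (3), 16 for the dKO response (10), 10 for SGK1 knockout at rest (2), 15 for SGK1 knockout with DMXAA (9), 5 for dKO at rest (2), 2 for the SGK1 knockout minus control response (1) and 3 for the dKO minus control response (1). Calls over all genes moved as well in that fit, from 1768 to 883 for SGK3 knockout at rest, from 1124 to 2555 for the dKO response and from 1069 to 4732 for SGK1 knockout at rest. With the length trend removed they were 5 for the control response in b2, 12 for the SGK1 knockout response (6) and 4 for the dKO minus control response. Without a filter SGK1 knockout at rest had 1 and the SGK1 knockout minus control response 0, and these were 1 and 0 also without the 6 b2 libraries with the highest slopes. DESeq2 gave 6 for SGK1 knockout at rest. For the control response, b1 minus b2, 0 genes passed in edgeR (6 at an unadjusted p under 0.05), 2 with RLE scaling, 2 with DESeq2 and 4 without those 6 libraries.

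Leaving out each library in turn gave, as the lowest and highest count, 9 to 15 for the SGK3 knockout response, 3 to 12 for SGK3 knockout at rest, 4 to 7 for the dKO response in b2, 1 to 9 for SGK1 knockout at rest, 3 to 9 for SGK1 knockout with DMXAA, 1 to 3 for dKO at rest, 0 to 1 for the SGK1 knockout minus control response, 0 to 2 for the control response, b1 minus b2, and 2 (without dKO library X) to 8 (without dKO library T) for the dKO effect, b1 minus b2. The cause of these changes was not tested.

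The replicate block in b1 gave 23 genes for dKO with DMXAA, 19 for the inhibitor, 10 for the control response, 14 for the SGK3 knockout response, 10 for SGK3 knockout at rest and 14 with DMXAA. Correlations of same-numbered libraries ran from -0.473 to 0.401 over 57 pairs (median 0.0166), 14 of them over 0.1. The median for different numbers was -0.00215, so no pairing was seen over all groups together. Pairing between particular groups was not tested. In b2 no paired analysis was possible because its libraries carry letters and no numbers. Depth limits Epas1, Egln3 and Adm, with at most 108 counts in a library.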

Other observations

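The 4 libraries of b3 are 1 SGK1 knockout library (S) and 2 dKO libraries (V, W) with DMXAA, and a control library (J) whose title says untreated while its treatment field says DMXAA. Their titles mark them as reruns, and levels set across batches are TPM only. Ldha stood at 2006 and 2147 TPM in V and W, beside 1660 to 1780 TPM in dKO and 2190 to 2270 TPM in control libraries with DMXAA of b2. Pgam1 stood at 508 and 490 TPM, beside 362 to 442 and 582 to 626 TPM. Hk3 stood at 17.6 and 13 TPM, beside 30 to 33.8 TPM in dKO and 13.2 to 15.4 TPM in control libraries with DMXAA of b2. Pfkl stood at 46.2 and 48.8 TPM, beside 43.4 to 49.3 and 63.1 to 67.7 TPM. So both b3 dKO libraries lay between the b2 groups for Ldha and Pgam1, within the dKO range for Pfkl and outside it for Hk3. In library J, Pfkp was 107 TPM and P4ha1 70.3 TPM, beside 65.7 to 83.4 and 50 to 55.6 TPM in resting and 103 to 113 and 62.7 to 81.5 TPM in DMXAA-treated control libraries of b2.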
